A study of Mus musculus with 41 samples.

Results

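In mouse gastrocnemius muscle (GAS), lactylation of lysine 18 of histone H3 (H3K18la) was set against acetylation of lysine 27 (H3K27ac), each as 1 list of CUT&Tag peaks. All peaks of both lists on chromosomes 1 to 19 and X were merged. A merged region was of class both, H3K18la-only or H3K27ac-only according to the marks whose peaks lay in it, with an overlap of 1 bp counted. It was a promoter region when it came within 2 kb of a transcription start site (TSS) and a distal region otherwise. This gave 46800 regions, out of 117116 merged regions formed by all 24 peak lists of the study. The study profiled 4 histone post-translational modifications (hPTMs) in 41 samples, which the labels divide into 24 groups of a cell type and a mark. GAS came from young adult female C57BL/6 mice (C57Bl6/J in the study's methods) of the control condition, given ketamine and xylazine before death, and was snap-frozen. There were 2 samples for each mark, and nuclei were released by douncing. No allele, agent or time course separates the GAS groups, and the mark is the comparison. Among the other groups, adipocytes came from AdipoCre-NuTRAP mice. Some macrophages were taken from muscle after ischemia, and others were grown from bone marrow with M-CSF. Stem cells were kept in serum or in a medium with inhibitors. The labels list the mark as the antibody for the H3K18la samples and as the histone for the H3K27ac samples, and this difference cannot be told apart from the mark. The tissue was taken whole, so nuclei of endothelial, connective tissue, nerve and blood cells were profiled with the myonuclei.

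CUT&Tag directs a transposase to a chromatin mark with an antibody, and the tagged DNA piles up where the mark lies. H3K27ac is laid down by acetyltransferases such as Ep300 and Crebbp and marks active promoters and enhancers. H3K18la is an acyl mark formed from lactate, which contracting fast muscle makes in large amounts through glycolysis. Muscle genes are controlled by MyoD-family factors, which bind E-boxes, and by MEF2 factors, which bind an A/T-rich motif. MEF3 is a further motif of muscle gene promoters.

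Windows of 300 bp at the signal maximum are printed for 1 muscle gene of each class, so that the regions behind the counts can be read, with 1 endothelial region added. Sequences are from build GRCm38 (mm10), plus strand, and capitals mark a motif match on either strand: E-box CAGCTG, MEF3 TCAGGTT, MEF2 or AP-1 TGANTCA. The windows were chosen for holding such a motif, so its presence in them is no finding. At promoters, the first window lies in an intron of Atp2a1, the calcium pump of fast fibres, in a region of class both. The second lies in an intron of Casq2, the calsequestrin of slow and cardiac muscle, in an H3K18la-only region. The third lies in an intron of Tpm3, the slow tropomyosin, in an H3K27ac-only region at an alternative start site.
Atp2a1 promoter, chr7:126461602-126461901: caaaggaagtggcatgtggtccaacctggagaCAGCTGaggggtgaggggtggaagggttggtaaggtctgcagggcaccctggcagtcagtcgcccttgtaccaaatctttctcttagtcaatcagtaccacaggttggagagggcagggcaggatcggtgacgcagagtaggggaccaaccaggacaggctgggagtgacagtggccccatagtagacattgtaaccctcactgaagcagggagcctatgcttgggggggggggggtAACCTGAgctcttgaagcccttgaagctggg
Casq2 promoter, chr3:102086958-102087257: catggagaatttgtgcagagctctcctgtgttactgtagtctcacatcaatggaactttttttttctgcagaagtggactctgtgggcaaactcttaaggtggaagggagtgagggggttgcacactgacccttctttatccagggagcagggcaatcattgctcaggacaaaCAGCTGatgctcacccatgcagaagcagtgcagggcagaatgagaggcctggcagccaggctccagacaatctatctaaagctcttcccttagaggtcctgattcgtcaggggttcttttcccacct
Tpm3 promoter, chr3:90091386-90091685: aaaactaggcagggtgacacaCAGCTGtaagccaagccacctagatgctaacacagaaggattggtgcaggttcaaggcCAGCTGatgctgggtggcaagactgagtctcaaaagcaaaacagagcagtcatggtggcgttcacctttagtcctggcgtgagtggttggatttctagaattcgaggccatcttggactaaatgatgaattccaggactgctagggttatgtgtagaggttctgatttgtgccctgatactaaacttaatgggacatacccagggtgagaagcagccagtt
Among distal regions, a window in an intron of Ldb3, a Z-disc protein, is of class both. One in an intron of Xirp2, an actin-binding protein of muscle attachment sites, is H3K18la-only. One in an intron of a non-coding gene is H3K27ac-only and lies 41520 bp from the TSS of Jph1, which couples the plasma membrane to the sarcoplasmic reticulum. The endothelial window is intergenic and H3K18la-only, and lies 35955 bp from the TSS of Kdr, the main VEGF receptor.
Ldb3 distal, chr14:34544637-34544936: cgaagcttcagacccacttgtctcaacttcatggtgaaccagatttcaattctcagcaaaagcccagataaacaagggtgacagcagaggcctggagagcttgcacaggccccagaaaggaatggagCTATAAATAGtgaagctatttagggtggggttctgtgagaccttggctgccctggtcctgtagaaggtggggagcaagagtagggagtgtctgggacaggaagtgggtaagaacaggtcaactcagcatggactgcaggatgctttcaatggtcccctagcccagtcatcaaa
Xirp2 distal, chr2:67451586-67451885: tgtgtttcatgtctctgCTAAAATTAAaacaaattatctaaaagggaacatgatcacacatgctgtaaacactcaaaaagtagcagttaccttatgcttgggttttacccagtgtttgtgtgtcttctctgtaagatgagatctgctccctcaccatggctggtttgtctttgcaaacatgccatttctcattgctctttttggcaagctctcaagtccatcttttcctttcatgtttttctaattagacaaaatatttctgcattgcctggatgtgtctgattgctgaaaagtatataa
Jph1 distal, chr1:16962549-16962848: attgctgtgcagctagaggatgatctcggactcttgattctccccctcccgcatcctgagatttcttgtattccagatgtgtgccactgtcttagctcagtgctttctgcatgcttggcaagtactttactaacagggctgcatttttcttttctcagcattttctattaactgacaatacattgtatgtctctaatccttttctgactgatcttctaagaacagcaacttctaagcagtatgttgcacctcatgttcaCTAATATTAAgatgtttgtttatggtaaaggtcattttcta
Kdr distal, chr5:76014263-76014562: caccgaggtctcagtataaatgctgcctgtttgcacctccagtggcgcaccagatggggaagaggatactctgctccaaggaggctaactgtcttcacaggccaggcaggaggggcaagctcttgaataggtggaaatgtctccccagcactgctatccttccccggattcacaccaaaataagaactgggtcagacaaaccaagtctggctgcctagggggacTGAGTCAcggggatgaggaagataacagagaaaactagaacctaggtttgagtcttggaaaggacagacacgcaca

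H3K18la and H3K27ac occupied different shares of the muscle genome. The H3K18la list held 36813 peaks with a median width of 2331 bp and covered 123.09 Mb, 4.67% of the genome. The H3K27ac list held 35286 peaks with a median width of 3899 bp and covered 196.81 Mb, or 7.47%. H3K27ac peaks were thus similar in number and wider. The median of the highest coverage in a peak was 29 for H3K27ac and 54 for H3K18la, and the mean coverage per base was 9.76 and 18.7. Coverage was not scaled for depth, so these values describe the lists and not the strength of the marks. Read numbers per sample were not used here, and the part of this difference in the classes was not tested. The marks shared 77.8 Mb. This was 63.2% of the H3K18la bases and 39.5% of the H3K27ac bases, 8.46 times the bases that lists of these sizes would share at random. Each list pools 2 samples before peak calling, so no spread between samples can be given for any value here, no difference was tested, and intervals are 95% Wilson intervals (for differences of shares, a combination of both), which cover counting error only.

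Promoters were mostly shared or H3K27ac-only, and distal regions divided evenly. Of 18886 promoter regions, 9017 were of class both (47.7%, interval 47.0 to 48.5), 6630 were H3K27ac-only (35.1%, 34.4 to 35.8) and 3239 were H3K18la-only (17.2%, 16.6 to 17.7). Of 27914 distal regions, 8904 were of class both (31.9%, 31.4 to 32.4), 9120 were H3K27ac-only (32.7%, 32.1 to 33.2) and 9890 were H3K18la-only (35.4%, 34.9 to 36.0). H3K18la-only regions were the most distal class. Only 24.7% (23.9 to 25.4) of them were at promoters, against 42.1% (41.3 to 42.9) of H3K27ac-only and 50.3% of shared regions. Median widths had the same order, at 2011, 3431.5 and 6081 bp. A wide region reaches a promoter window more easily, and the part of width was not tested. With the 15000 strongest peaks of each list the order at promoters stayed (4415 both, 3879 H3K27ac-only, 1688 H3K18la-only), and distal regions numbered 3272, 2745 and 3486. Both splits depended on how many bases H3K27ac was allowed. With the H3K27ac list cut to its 12997 strongest peaks, which cover as many bases as the H3K18la list, 15258 distal regions were H3K18la-only, 4072 were of class both and 890 were H3K27ac-only. Promoters then numbered 6176 H3K18la-only, 5960 of class both and 1442 H3K27ac-only.

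**Figure D1:**
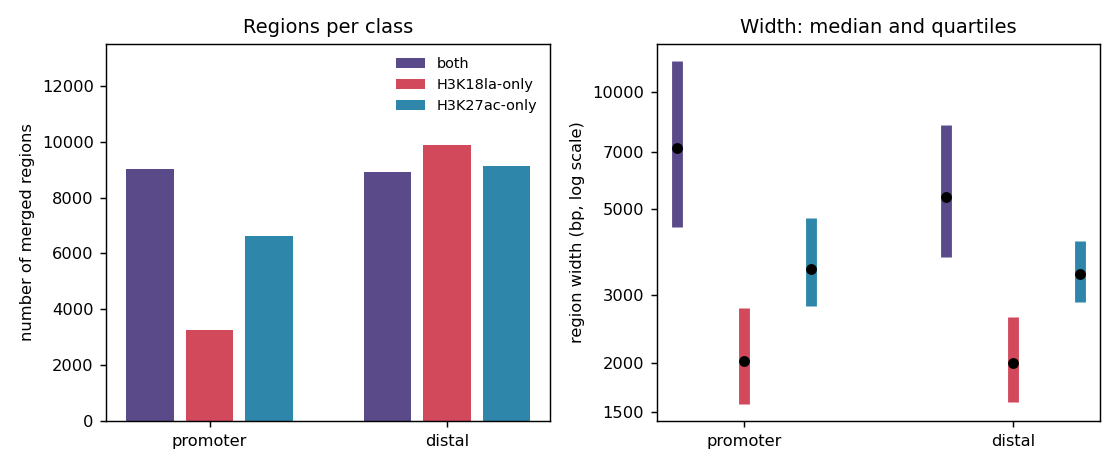
Number of merged regions (left) and region width in bp on a log scale (right) for the classes both, H3K18la-only and H3K27ac-only at promoter and distal positions in GAS. Black points are medians and bars span the quartiles; shared regions are the widest, and H3K18la-only regions have medians of 2028 bp at promoters and 2007 bp at distal positions.

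Shared regions were the widest. Their median width was 7141 bp at promoters and 5340.5 bp at distal positions, with single regions of up to 147201 and 124985 bp. H3K27ac-only regions had medians of 3505 and 3388 bp, and H3K18la-only regions 2028 and 2007 bp. The distal quartiles of the single-mark classes did not overlap, at 1590 to 2631 bp for H3K18la-only and 2871 to 4139 bp for H3K27ac-only regions. Width followed the length of the lists. The distal medians were 3641 (H3K18la-only) and 5982 bp (H3K27ac-only) with 15000 peaks per list, and 2082.5 and 6661.5 bp with H3K27ac cut to the bases of H3K18la.

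Inside a shared region the H3K18la peak usually sat within a broader H3K27ac peak. At promoters of class both, the median H3K18la peak was 2948 bp wide and the median H3K27ac peak 6055 bp. H3K27ac covered more of the region in 82.1% of them, and in the median region 98.5% of the H3K18la bases lay under H3K27ac, while 54.2% of the H3K27ac bases lay under H3K18la. A single peak of each mark met in 68.3%, several H3K18la peaks for fewer H3K27ac peaks in 24.4%, and the converse in 4.5%. Distal shared regions had the same arrangement, with a median of 94.9% of H3K18la bases under H3K27ac and of 58.7% the other way round. The maxima of the marks were seldom at the same base. They lay a median of 526 bp apart at promoters and 536 bp apart at distal regions, and within 500 bp of each other in 49.3% and 48.3%.

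Peaks were ranked by total signal within their own list, as a percentile in which 100 is the strongest peak. The strongest peaks of either mark were nearly always shared. Of all H3K18la peaks, 64.3% (23684 of 36813) overlapped an H3K27ac peak, from 42.6% in the weakest 10% of the list to 96.9% in the strongest. Of all H3K27ac peaks, 55.4% (19536 of 35286) overlapped an H3K18la peak, from 28.7% to 97.6%. Median width rose between the same steps from 1550 to 8799.5 bp for H3K18la and from 2668 to 14474 bp for H3K27ac. A wide peak meets another more easily, and the part of width in the overlap was not tested. The marks differed more among weak promoter peaks than among weak distal peaks. In the weakest 10%, 52.7% of promoter H3K18la peaks met H3K27ac and 26.4% of promoter H3K27ac peaks met H3K18la. At distal peaks the values were 38.5% and 29.8%.

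**Figure D2:**
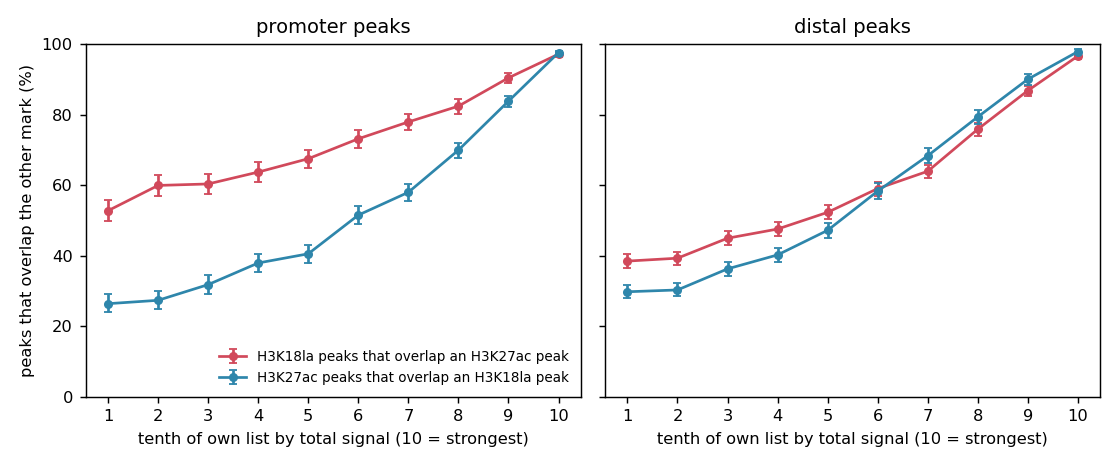
Share of GAS peaks that overlap a peak of the other mark, in steps of 10% of the own list by total signal (step 10 is the strongest), for promoter peaks (left) and distal peaks (right), with 95% Wilson intervals. Overlap rises with rank for both marks, from 52.7% and 26.4% in the weakest 10% of promoter peaks of H3K18la and H3K27ac to over 96% in the strongest 10%.

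Single-mark regions were therefore low in total signal for the most part. A region takes the highest percentile among its peaks of a mark, and shared regions can hold several. At promoters, the median rank percentile of shared regions was 68.9 for H3K18la and 76.7 for H3K27ac. H3K18la-only promoters stood at 35.7 and H3K27ac-only promoters at 39.4. Distal medians were 63.3 and 59.5 for shared regions, 32.2 for H3K18la-only and 28.4 for H3K27ac-only regions. Above the 90th percentile of their own list there were 115 H3K18la-only and 83 H3K27ac-only regions. Within shared regions the ranks of the marks rose together, with a Spearman rho of 0.545 over 9017 promoter regions (Pearson's r 0.441) and of 0.481 over 8904 distal regions (0.434). Region width enters both ranks, and regions are not replicates.

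H3K27ac-only regions lay closer to peaks of the other mark than H3K18la-only regions did at distal positions. The median gap to the nearest H3K18la peak was 8665.5 bp for distal H3K27ac-only regions, and 54.2% were within 10 kb of one. For distal H3K18la-only regions the gap to the nearest H3K27ac peak was 16452 bp, and 40.7% were within 10 kb. At promoters the gaps were 12885.5 and 13614 bp.

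The other marks profiled in GAS separated the classes only in part. H3K4me3, a mark of active start sites, lay on 74.2% of promoters of class both. It lay on 47.8% of H3K18la-only and 48.0% of H3K27ac-only promoters, a difference of -0.26 percentage points (interval -2.36 to 1.84). Among promoter regions 1500 to 3000 bp wide the shares were 43.9% and 52.6%, and among those of 3000 to 6000 bp they were 48.5% and 42.8%, so the order turned with width. The difference was -10.8 points (-13.6 to -8.03) with 15000 peaks per list and -7.28 (-10.03 to -4.48) with H3K27ac cut to the bases of H3K18la. At distal regions, H3K4me3 was found on 25.2% of shared, 8.45% of H3K18la-only and 4.63% of H3K27ac-only regions. H3K27me3, the Polycomb mark of silenced genes, lay on 12.01% of H3K18la-only promoters, 5.40% of H3K27ac-only and 5.03% of shared ones. The difference between the single-mark classes was 6.61 percentage points (5.39 to 7.89), with 4.03 under the cut and 10.3 with TSS of coding transcripts only. At distal regions the H3K27me3 shares were 5.70%, 4.52% and 4.37%.

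H3K18la-only regions were found in cultured muscle cells more often than H3K27ac-only regions. The series holds H3K18la lists of myoblasts (MB) and of myotubes (MT), the fused fibre-like cells into which they differentiate, and no H3K27ac list of either was used here. MT H3K18la peaks overlapped 51.9% of distal shared regions, 36.1% of distal H3K18la-only and 16.5% of distal H3K27ac-only regions. At promoters the shares were 65.9%, 41.0% and 21.6%. MB gave lower levels, with 18.2%, 13.3% and 4.65% of distal regions. H3K18la-only stayed above H3K27ac-only at like width, whereas the order of shared and H3K18la-only regions did not hold. In distal regions 1500 to 3000 bp wide, MT H3K18la overlapped 38.3% of shared, 34.3% of H3K18la-only and 15.5% of H3K27ac-only regions, and in those of 3000 to 6000 bp 44.8%, 46.7% and 16.3%. For MB these values were 10.6%, 12.1% and 3.85%, and 14.1%, 18.5% and 4.75%. The overlap with MT rose with rank. Of distal H3K18la-only regions, 29.9% of the 3897 below the 25th percentile of the whole list and 58.8% of the 587 above the 75th overlapped MT H3K18la. For distal H3K27ac-only regions the shares were 14.5% of 4053 and 25.4% of 307. These lists carry the mark that defines the H3K18la classes.

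H3K27ac lists of other cells gave the comparison from the opposite side, and there too H3K27ac-only distal regions were the least shared. Peaks in any of the 4 other H3K27ac lists overlapped 39.5% of distal shared, 25.7% of H3K18la-only and 15.9% of H3K27ac-only regions. Taken singly, the list of embryonic stem cells in serum was an exception, with 3.72% of H3K18la-only and 3.87% of H3K27ac-only distal regions. For any of the 7 other H3K18la lists the shares were 74.4%, 61.5% and 40.3%. In neither kind of list were 58.2% of distal H3K27ac-only regions found, against 37.8% of H3K18la-only and 24.8% of shared regions. At promoters H3K27ac-only regions were met more often than H3K18la-only regions by each of the 4 other H3K27ac lists. That of BMDM, bone marrow-derived macrophages, overlapped 21.1% of H3K18la-only and 24.5% of H3K27ac-only promoters. H3K27ac of adipocytes (ADIPO) overlapped 33.0% of H3K18la-only and 37.3% of H3K27ac-only promoters, that of macrophages taken from muscle after ischemia (PIM) 30.1% and 39.2%, and that of mESC-ser, embryonic stem cells kept in serum, 19.8% and 33.1%. H3K18la lists were divided. Those of ADIPO (34.5% of H3K18la-only and 35.7% of H3K27ac-only promoters) and of stem cells in 2i medium (29.0% and 30.5%) had the same order. The remaining H3K18la lists had the reverse. H3K27ac-only promoters were the wider (medians of 3505 and 2028 bp), and the part of width was not tested. H3K27me3 of other cells lay more often on H3K18la-only than on H3K27ac-only promoters, by gaps of unequal size. In mESC-ser the shares were 23.9% and 9.16%, with 19.6% of shared promoters, and in PIM 26.0% and 10.6%, with 18.6%. In MT they were 9.54% and 7.07%, with 7.22%, and in MB 6.70% and 3.44%, with 4.84%.

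**Figure D3:**
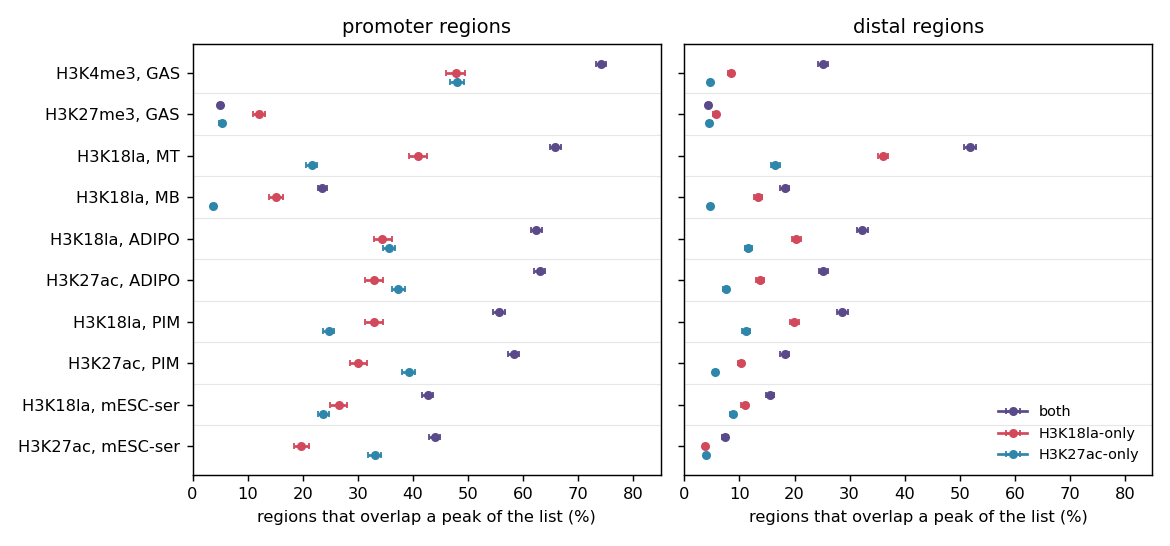
Share of GAS promoter regions (left) and distal regions (right) of each class that overlap a peak of 10 other lists, with 95% Wilson intervals. MT H3K18la overlaps 51.9% of shared, 36.1% of H3K18la-only and 16.5% of H3K27ac-only distal regions, and GAS H3K4me3 lies on 74.2% of shared promoters.

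The classes stood in different surroundings. A CpG island lay in 39.9% of shared promoters, 28.7% of H3K27ac-only and 21.98% of H3K18la-only promoters. The gap of the single-mark classes, -6.68 points, was -20.8 with 15000 peaks per list, -15.8 with H3K27ac cut to the bases of H3K18la and -10.6 in regions 1500 to 3000 bp wide. Distal H3K27ac-only regions were the most intragenic, with 66.6% of their maxima in introns and 27.8% between genes. For distal H3K18la-only regions these shares were 50.5% and 46.9%, and for shared regions 60.7% and 36.4%. The median distance to the TSS of a coding gene was 22298.5 bp for H3K27ac-only, 35862 bp for shared and 44124.5 bp for H3K18la-only distal regions. Maxima of distal H3K27ac-only regions fell within coding genes in 68.2%, and the promoter of that host gene carried both marks in 67.3% of such cases. For distal H3K18la-only regions 45.7% lay within coding genes. The host promoter then carried both marks in 52.2%, H3K18la alone in 19.5% and neither mark in 20.5%. Hosts of distal H3K27ac-only regions carried H3K27ac alone in 19.8% and neither mark in 9.89%, and hosts of shared regions both marks in 74.1%. Of all coding genes, 30.4% carried both marks, 5.67% H3K18la alone, 16.5% H3K27ac alone and 47.4% neither.

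Motif matches were counted on both strands of the 300 bp at each maximum, with the H3K18la maximum used for shared regions. The E-box CAGCTG was in 21.0% of all promoter and 22.5% of all distal windows. It was in 26.4% of distal shared, 24.9% of H3K18la-only and 16.1% of H3K27ac-only windows. The MEF2 motif was in 4.35% of all promoter and 5.68% of all distal windows. It marked the shared class, in 8.20% of distal shared windows against 4.76% of H3K18la-only and 4.21% of H3K27ac-only windows. AP-1 (TGANTCA), in 13.1% of all distal windows, was in 13.9%, 15.2% and 9.86%. Part of this order belonged to the choice of maximum. At the H3K27ac maximum of the same distal shared regions, the E-box was in 21.8%, MEF2 in 6.11% and AP-1 in 11.2%.

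The SP/KLF and ETS motifs were more frequent at promoters, and MEF3 was not. The SP/KLF motif GGGCGG was in 27.7% of shared, 21.7% of H3K18la-only and 20.2% of H3K27ac-only promoter windows, and in 7.35%, 7.24% and 3.94% of distal windows. The ETS motif CCGGAAG was in 7.24% of H3K27ac-only, 5.67% of shared and 3.89% of H3K18la-only promoter windows, and in 1.16%, 1.42% and 1.87% of distal windows. MEF3 (TCAGGTT) was in 4.69% of all promoter and 4.99% of all distal windows, and in 5.55% of shared, 5.26% of H3K27ac-only and 4.25% of H3K18la-only distal windows. None of these motifs contains another. The median GC content of distal windows was 50% in shared, 49.3% in H3K18la-only and 47.0% in H3K27ac-only regions, and its part in the motif shares was not tested. A match describes letters and does not show that a factor was bound.

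Each of 21755 protein-coding genes took the class of all its TSS windows together. Both marks were at 6621 genes (30.4%), H3K27ac alone at 3597 (16.5%), H3K18la alone at 1234 (5.67%) and neither at 10303 (47.4%). With H3K27ac cut to the bases of H3K18la, H3K18la was alone at 3072 genes and H3K27ac at 1294, which turned their order, and with 15000 peaks per list both marks were at 3246. A peak that spans several genes gave its rank to each of them. H3K4me3 was at 96.5% of genes with both marks, 89.4% of those with H3K27ac alone and 82.7% of those with H3K18la alone, against 64.2% of all genes. H3K27me3 was at 33.4% of genes with H3K18la alone, 11.4% of those with H3K27ac alone and 8.76% of those with both, while genes with neither mark had it in 37.0% and all genes in 23.9%. In genes with both marks, the H3K18la percentile minus the H3K27ac percentile had a median of -8.46, and it was above 0 in 32.5% of them.

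Most genes of the sarcomere and fast-fibre lists carried both marks at high ranks. All 16 genes of the sarcomere list were of class both (30.4% of all genes), with medians of 94.5 for H3K18la and 96.2 for H3K27ac. Ldb3 stood at 98.8 and 99.7, and the giant spring protein Ttn at 92.4 and 98.6. Xirp2 (73.6 and 57.4) and the thick-filament protein Mybpc1 (83.9 and 53.8) ranked higher for H3K18la. Of 13 fast-fibre genes, 11 were of class both, and these had medians of 92.1 and 98.2. The fast troponin T gene Tnnt3 stood at 99.8 for both marks, the calsequestrin gene Casq1 at 98.6 and 99.7, and Atp2a1, whose window is printed above, at 98.1 and 99.4.

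The fast myosin heavy chains separated the marks. Myh4, the chain of the fastest fibres, carried H3K18la at 91.4 and H3K27ac at 97.7. Its neighbours Myh1 and Myh2 carried H3K27ac alone, at 85.8 and 14.1. Among 9 slow-fibre genes 3 were of class both, 1 was H3K18la-only, 1 was H3K27ac-only and 4 carried neither, shares near those of all coding genes (30.4% both, 47.4% neither). Myh7, Myl2, Myl3 and Atp2a2 were without either mark, the slow troponin I gene Tnni1 stood at 99.4 and 99.1, and Casq2 carried H3K18la alone at 69.4. All 13 fast-fibre genes carried at least H3K27ac in this fast muscle.

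Regulators of muscle identity were shared too. Of 14 myogenic regulators 13 were of class both (30.4% of all genes), and these had medians of 91.6 and 93.2. Myod1, the founding muscle transcription factor, stood at 80.1 for H3K18la and 95.7 for H3K27ac, and Mef2d at 99.0 and 99.9. Myf5 ranked at 98.6 for H3K18la and 48.1 for H3K27ac, but the H3K18la peak is shared with its neighbour Myf6, whose H3K27ac peak stood at 94.8. A distal region of class both lay within 50 kb of 28.1% of all coding genes, an H3K27ac-only region of 38.6% and an H3K18la-only region of 24.7%. Such regions near these 14 genes numbered 37 of class both, 34 H3K27ac-only and 9 H3K18la-only. Around the 16 sarcomere genes they numbered 32, 54 and 7. Around all coding genes, with a region counted once for each gene near it, they numbered 11376, 16145 and 10177.

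Genes of excitation and of the neuromuscular junction carried both marks for the most part. Of 14, 11 were of class both (30.4% of all genes), and the H3K27ac percentile was the higher in 10 of these. Their medians were 85.6 for H3K18la and 91.2 for H3K27ac, with a median difference of -5.66 against -8.46 over all genes of class both. The difference became 5.00 with the H3K27ac list cut to the bases of H3K18la. Musk, the receptor kinase that assembles the junction, stood at 55.05 for H3K18la and 90.4 for H3K27ac, and the receptor-clustering protein Rapsn at 50.2 and 89.2. The acetylcholine receptor subunits Chrna1 and Chrne carried H3K27ac alone, at 46.6 and 68.1, and Chrnb1 carried both marks at 41.4 and 73.3. The dystrophin gene Dmd was H3K18la-only, at 56.4.

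Glycolysis genes, which make the lactate from which H3K18la derives, were marked strongly by both hPTMs. Of 16 annotated entries for 15 symbols, 15 were of class both (30.4% of all genes). Their medians were 95.2 for H3K18la and 97.8 for H3K27ac, and the sign of the difference was divided 7 to 8. Hk2, the muscle hexokinase, stood at 99.9 and 99.5, Pfkm, the muscle phosphofructokinase, at 99.0 and 99.9, and Ldha, the lactate dehydrogenase subunit of fast muscle, at 92.4 and 99.5. Ldhb, the oxidative subunit, ranked at 42.2 and 37.4. The lactate exporter Slc16a3 stood at 96.7 for both marks, while the transporter Slc16a1 carried H3K27ac alone at 48.6. All 10 glycogen genes carried both marks, and H3K27ac was the higher in 9. Gyg, which primes glycogen synthesis, stood at 36.6 and 99.6, the widest gap of the list.

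Oxidative and clock genes were shared as well. Among 20 oxidative regulators and fat oxidation genes 18 were of class both (30.4% of all genes), with medians of 81.7 and 88.2. H3K18la was the higher in 10 of these and H3K27ac in 8. The fatty acid transporter Cd36 stood at 95.1 for H3K18la and 38.6 for H3K27ac. Of 14 circadian clock genes 13 were of class both, with medians of 95.3 and 97.5. Cry1, a repressor of the clock, stood at 13.7 and 82.5, and Clock carried neither mark. Of 17 writers and erasers of histone acyl marks 13 were of class both. These had medians of 63.5 and 87.5, against 65.1 and 80.6 over all genes of class both. With 15000 peaks per list 8 of the 17 were of class both. The acetyltransferase genes Ep300 and Crebbp carried H3K27ac alone, at 89.1 and 93.8, as did 16.5% of all coding genes at any rank.

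Genes of the cytosolic ribosome belonged to H3K27ac more than to H3K18la. Of 84, 38 were H3K27ac-only (16.5% of all genes), 35 were of class both (30.4%), 3 were H3K18la-only (5.67%) and 8 carried neither (47.4%). In the 35 with both marks the median percentile was 40.1 for H3K18la and 77.0 for H3K27ac, with a median difference of -25.3 (-8.46 over all genes of class both), and H3K27ac was the higher in 30. With 15000 peaks per list 10 were of class both, and with H3K27ac cut to the bases of H3K18la the difference was -9.42. Rpl32 carried H3K27ac alone at 97.9, and Rps3 at 77.4. Rpl19 stood at 38.3 and 96.7, but shares its H3K27ac peak with the neighbouring excitation gene Cacnb1. Rpl3l, the muscle form of a ribosomal protein, was at 98.2 and 98.7. Several ribosomal protein genes have processed copies elsewhere in the genome, and how reads were shared between the copies was not tested.

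Endothelial genes were the converse. All 10 carried H3K18la and 6 of them carried it alone, against 5.67% of all genes. In the 4 of class both the H3K18la percentile was the higher each time, with a median difference of 49.4. With 15000 peaks per list, or with H3K27ac cut to the bases of H3K18la, 1 gene was of class both, and 5 and 9 were H3K18la-only. Pecam1, an adhesion molecule of endothelial junctions, stood at 99.5 for H3K18la and 65.9 for H3K27ac, Egfl7 at 98.5 and 53.9, and the cadherin gene Cdh5 at 78.8 and 24.5. Cldn5, a tight junction protein, stood at 89.5 and 1.03. The receptor genes Flt1 (74.6), Tek (71.8), Tie1 (40.7) and Kdr (37.3), with Sox17 (44.7) and Emcn (36.3), were H3K18la-only. The distal regions within 50 kb of the 10 genes numbered 36 H3K18la-only, 7 of class both and 5 H3K27ac-only. Each of the 10 genes had an H3K18la-only region near it, as did 24.7% of all coding genes.

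Fibroblast genes leaned the same way. Of 10, 5 were of class both, 2 were H3K18la-only and 3 carried neither, against 30.4%, 5.67% and 47.4% of all genes. H3K18la was the higher in all 5 of class both, with a median difference of 37.6. Under the same alternatives 1 gene was of class both, and 4 and 6 were H3K18la-only. The collagen gene Col3a1 stood at 65.4 and 6.48, the surface protein gene Ly6a at 93.1 and 55.4, and the proteoglycan gene Dcn at 65.4 and 27.8. Near these genes lay 13 distal H3K18la-only regions, 2 of class both and no H3K27ac-only region. Around all coding genes these numbered 10177, 11376 and 16145. Of 8 genes of smooth muscle and pericytes 2 were H3K18la-only, namely Pdgfrb at 88.9 and Acta2 at 73.8, 1 was H3K27ac-only, namely Tagln at 55.1, 1 was of class both and 4 carried neither. Of 7 adipocyte genes 4 carried neither mark. Fabp4, a lipid carrier of adipocytes and capillaries, was H3K18la-only at 93.8, Pparg was H3K18la-only at 20.4, and Cebpa was of class both at 73.6 and 67.9.

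Genes of the other cell types are given beside the 47.4% of all coding genes with neither mark. Of 10 genes of macrophages and other leukocytes 6 carried neither mark, 1 was of class both and 2 were H3K18la-only, Csf1r at 44.7 and C1qa at 7.02, and Cd68 was H3K27ac-only at 94.01. Neither mark was at 4 of 7 adipocyte, 5 of 7 Schwann cell, 4 of 7 satellite cell, 6 of 7 neuron, 7 of 8 pluripotency and 5 of 6 germ cell genes, and at none of the 6 erythroid and 7 liver genes was either mark called. In whole tissue, fewer nuclei of a cell type and less of a mark per nucleus cannot be told apart, and the part of cell numbers in the endothelial and fibroblast values was not tested.

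**Figure D4:**
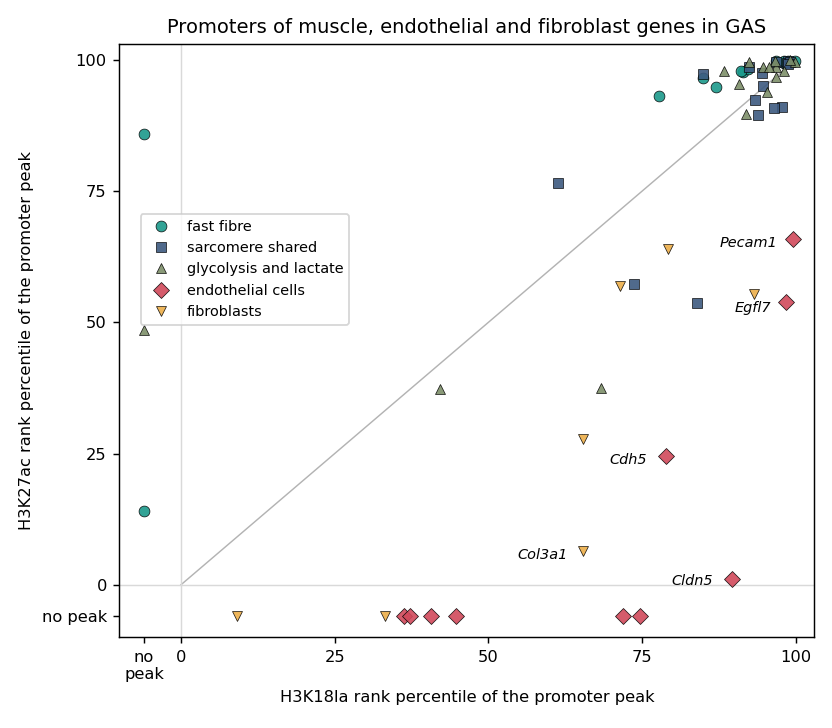
Rank percentile of the strongest promoter peak of H3K18la (x axis) and H3K27ac (y axis) in GAS for genes of 5 lists, where 100 is the strongest peak of the own list, no peak is drawn left of or below 0 and genes with neither mark are left out. Most sarcomere, fast-fibre and glycolysis genes gather at the upper right. Cldn5 (89.5 and 1.03), Cdh5 (78.8 and 24.5) and the other endothelial genes lie to the right of the diagonal.

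The widest rank gaps among genes of class both ran in both directions. The 10 with H3K18la furthest above H3K27ac were led by Soga1 (95.3 and 4.42), Myadm (96.9 and 7.64) and Prodh (89.98 and 1.23), a proline-degrading enzyme. They held 1 gene of the endothelial list, Cldn5, and also Esam (88.8 and 0.969), Dusp6 (96.2 and 8.65), a phosphatase of ERK signalling, and Gimap6 (92.2 and 4.98). The 10 with H3K27ac furthest above H3K18la included the kinase gene Mapk14 (2.80 and 98.6), Tspan3 (2.81 and 97.4), Tgoln1 (0.750 and 93.8) of the trans-Golgi network and the lysosomal enzyme gene Naglu (0.133 and 90.9). Mapk14 shares its peaks with the neighbouring Slc26a8. All 20 genes carried H3K4me3 at the promoter, and Esam and Slc26a8 carried H3K27me3 as well. These genes were picked for their gap, so its size is a description.

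The X chromosome was poor in H3K27ac. It makes up 6.49% of the genome used and held 0.323% of the H3K27ac peaks (114) and 1.33% of the H3K18la peaks (491). GAS H3K27ac had the lowest share of the 24 lists. The other H3K27ac lists had 1.28% to 1.65%, and the other H3K18la lists 1.42% to 2.10%. H3K4me3 peaks of GAS were on X in 3.80% and H3K27me3 peaks in 7.23%. Of 948 coding genes on X, 106 (11.2%) were H3K18la-only, 44 (4.64%) were of class both and 17 (1.79%) were H3K27ac-only. On the autosomes these shares were 5.42%, 31.6% and 17.2%. In X-linked genes of class both H3K18la was the higher in 32 of 44, with a median difference of 19.8, against -8.69 on the autosomes. Pgk1, the glycolytic phosphoglycerate kinase, stood at 68.3 for H3K18la and 37.4 for H3K27ac, and Phka1, a subunit of phosphorylase kinase, at 82.2 and 42.8. Without X, H3K18la-only genes numbered 1128 in place of 1234 and distal H3K18la-only regions 9624 in place of 9890.

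Single regions at the head of each class were mostly long. Regions called in at least 20 of the 24 lists were set aside here. They made up 0.488% of shared promoters and 0.270% of shared distal regions and headed both shared classes, with Gm10800, a locus of repeats, first at promoters and regions in Chl1 and nearest to Fgf14 and Rab10 first at distal positions. Of the rest, the leading shared promoter region was at Zmiz1, a transcriptional coregulator, 87298 bp long with ranks of 99.98 and 99.86. Klf13, Retreg1 and Capzb followed among the first 5. The leading distal shared region lay in Zbtb16, a transcription factor gene (chr9:48684230-48809214). It was 124985 bp long, joined 7 H3K18la and 4 H3K27ac peaks, carried H3K4me3 and MT H3K18la, and was met in 16 lists.

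With the same regions set aside, which dropped Mid1 (99.8, called in 21 lists) from the head of the H3K18la-only promoters and a region 51841 bp from Gm21119 (98.8, 22 lists) from that of the H3K27ac-only promoters, the strongest H3K18la-only promoter was at Rgl1 (21786 bp, percentile 98.5), which also carried H3K27me3, followed by the keratin gene Krt80 (97.6). The strongest H3K18la-only distal region lay in Cubn (14179 bp, 98.2) and was called in MT H3K18la as well. The first H3K27ac-only promoter region (21707 bp, 98.7, called in 19 lists) met no promoter of a coding gene, and the nearest such gene, the predicted gene Gm15319, lay 32968 bp away. Kmt2e, a chromatin regulator, came next (25988 bp, 97.2), and of all 24 lists its region was called in that of GAS H3K27ac alone. The H3K27ac-only distal regions were headed by Etl4 (21933 bp, 96.6), Mylk4, a kinase of striated muscle (20377 bp, 96.4), and, among the first 5, Igf1r, the IGF1 receptor gene (21506 bp, 95.2).

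The same classes were formed in the 4 other cell types with both marks. The distal H3K27ac-only share was 32.7% in GAS, 7.09% in ADIPO, 6.13% in PIM, 5.70% in mESC-ser and 5.10% in BMDM. The distal H3K18la-only share was 35.4% in GAS, 43.9% in ADIPO, 59.3% in PIM, 61.2% in BMDM and 63.9% in mESC-ser. The shared distal part ranged from 30.4% in mESC-ser to 49.0% in ADIPO, with GAS at 31.9%. H3K27ac covered 1.60 times as many bases as H3K18la in GAS, 1.45 times in BMDM, 0.711 in ADIPO, 0.397 in PIM and 0.388 in mESC-ser. The GAS share depended on the length of its H3K27ac list. With that list cut to the bases of H3K18la, 890 distal GAS regions were H3K27ac-only, 4072 of class both and 15258 H3K18la-only. Each cell type has 1 list of each mark, so the difference of GAS from the others was not tested.

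**Figure D5:**
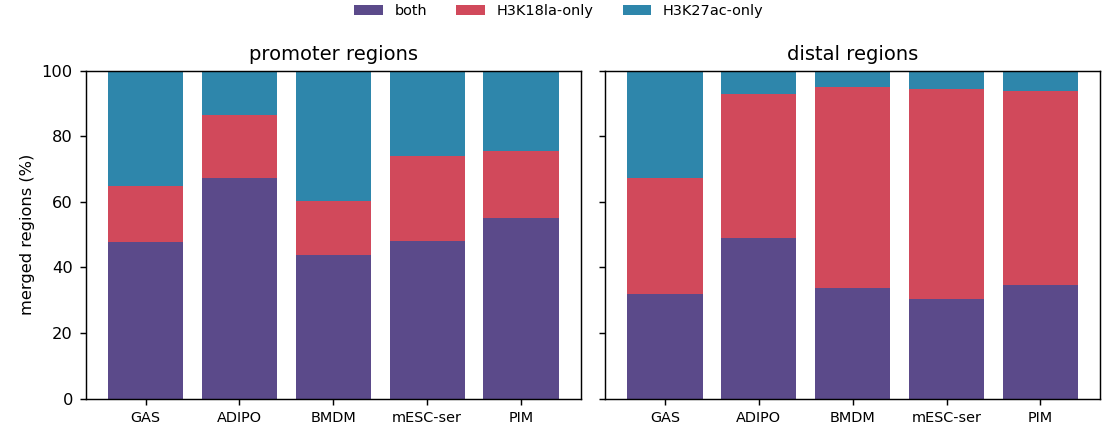
Shares of promoter regions (left) and distal regions (right) of class both, H3K18la-only and H3K27ac-only, in percent of the merged regions of each of 5 cell types. The distal H3K27ac-only share is 32.7% in GAS and between 5.10% and 7.09% in the other 4. With GAS H3K27ac cut to the bases of H3K18la (not drawn), 890 distal regions are H3K27ac-only, 4072 of class both and 15258 H3K18la-only.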

How the data were processed

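Deposited peak lists of 24 groups were used, 1 per group. Per the submitters' processing notes and the study's methods, the authors trimmed reads with Trim Galore 0.6.6, aligned them to mm10 with Bowtie2 2.4.4, used SAMtools 1.13 and bedtools 2.30, added the coverage of replicates and called peaks with SEACR 1.3, stringent mode, top 1% of regions. The deposited lists give total and maximum signal, coverage in whole numbers with no scaling, so peaks were compared by rank within a list. Wide peaks have large totals. Duplicate removal was not given in the sources used here. The study's methods state that blacklisted regions were removed from peaks, and the deposited lists still hold peaks on mitochondrial DNA.

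Chromosomes 1 to 19 and X were kept (for H3K18la 9 peaks on Y and 1 on mitochondrial DNA were left out, for H3K27ac 3 and 1). TSS came from 139486 GENCODE M21 transcripts, and the GRCm38 genome gave sequence. CpG islands (at least 500 bp, GC at least 55%, observed over expected CpG at least 0.65) numbered 10734. Windows of 300 bp were centred on the middle of the stretch of maximum signal. Named genes are those of the gene lists, the 5 strongest regions of each class and the 10 widest rank gaps in each direction, and some are left out for length or are not reported here. Members and lists were chosen with earlier results of these data known. No test was run because replicates were pooled. Scripts (Python 3.11.15, numpy 2.4.6, pandas 2.3.3, scipy 1.17.1, numba 0.67.0, matplotlib 3.10.9) were tested on simulated data. Alternatives were other promoter windows, overlaps, gaps, ranks and list lengths.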

Additional observations from a re-analysis of the deposited data

How the results depend on the processing

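No paired analysis was possible because the samples of each mark were pooled before peak calling, and for the same reason no sample was left out in turn. Recomputed under the alternatives, 123 values of the classes (counts, widths, ranks, shares) stayed within 1.5 times the count or within counting error and 44 did not. For gene lists these numbers were 199 and 22. Differences between the single-mark classes kept their sign in 59 of 60. The exception was the H3K4me3 share of promoters, near 0 as reported. Outside these 60, that share was also turned in regions of 3000 to 6000 bp (48.5% of H3K18la-only and 42.8% of H3K27ac-only promoters).

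With 15000 peaks per list, promoter regions numbered 4415 (both), 1688 (H3K18la-only) and 3879 (H3K27ac-only) and distal regions 3272, 3486 and 2745, genes of class both 3246, distal single-mark widths (H3K18la-only, then H3K27ac-only) 3641 and 5982 bp and ranks 30.8 and 27.3. H3K18la-only minus H3K27ac-only shares were -20.8 points (CpG island), -10.8 (promoter H3K4me3), 6.21 (distal H3K4me3) and 18.7 (distal, another H3K18la list). With H3K27ac cut to the bases of H3K18la, promoters numbered 5960, 6176 and 1442, distal regions 4072, 15258 and 890, genes 3072 (H3K18la-only) and 1294 (H3K27ac-only), widths 2082.5 and 6661.5 bp, ranks 37.7 and 22.8, and differences -15.8 (CpG island), 4.03 (promoter H3K27me3), -7.28 (promoter H3K4me3) and 14.4 (another H3K18la list). The cut list has fewer peaks by construction, and the median rank difference of several gene lists changed sign with it (excitation 5.00, clock 2.29, housekeeping 6.99, Hox 11.9, against -5.66, -1.44, -1.60 and -2.19 as reported).

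With TSS of coding transcripts only, single-mark promoters numbered 1862 and 4236, the promoter H3K27me3 difference was 10.3, and distal H3K27ac-only regions had a rank of 29.3 and a width of 3414.5 bp. Joining peaks up to 1 kb apart gave -8.62 (CpG island), 8.14 (promoter H3K27me3) and widths of 2024.5 and 3415 bp. Ranking by maximum signal gave 26.4 for distal H3K27ac-only regions. Settings chosen after the data were seen left out X, regions called in at least 20 lists, or regions over 50% repeats, or kept regions of 1500 to 3000 bp, which gave -10.6 (CpG island), 2.20 (distal H3K4me3) and -8.72 (promoter H3K4me3). Read depth was not used here, and a missing peak is not absence of the mark.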
